A study of Mus musculus with 8 samples.

Results

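The genes described here build the postsynaptic side of the neuromuscular junction, the contact at which a motor nerve excites a muscle fibre. They are 10 in number and fall into the 5 subunit genes of the muscle acetylcholine receptor (AChR), Chrna1, Chrnb1, Chrnd, Chrng and Chrne, and the 5 genes of the pathway that clusters the receptor, Agrn, Lrp4, Musk, Dok7 and Rapsn. H3K56ac peaks, intervals enriched for histone H3 acetylated at lysine 56, were assigned to them when they lay inside the gene or within 20 kb on either side of it. This gave 82 peaks of the 105600 in the merged peak list of muscle stem cells (MuSCs). The farthest peak included lay 19.7 kb from Rapsn, and the nearest peak left out lay 20.5 kb from Dok7.

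To map H3K56ac in MuSCs, the stem cells that rebuild muscle fibres, the study carried out ChIP-seq on freshly isolated cells of C57BL/6 mice. The labels name the other group only Control. The study calls these cells wild type, and elsewhere gives the controls of Sirt6mKO mice as Sirt6 fl/fl without the Cre. Sirt6mKO mice carried a Sirt6 fl/fl allele and a Cre recombinase driven by the Pax7 promoter, which is active in MuSCs and in the embryonic muscle lineage. The study also lists a ROSA26-YFP reporter strain in their cross. The labels describe 2 H3K56ac libraries and 2 input libraries of each genotype, 8 libraries in all, and give no age of the mice. The merged list gives positions only. It does not say which libraries contributed a peak, it holds no value per library, and the depth behind a peak cannot be read from it. No test over samples could be run, so all counts and widths below describe the union of peaks. Differences between Control and Sirt6mKO were not analysed here. The study reports more H3K56ac peaks across the genome in Sirt6mKO MuSCs, so a peak of the union need not be present in Control. The number of peaks it gives for wild-type MuSCs is far below that of the union, though the thresholds may differ. This limit also holds for the shares of all protein-coding genes given below. The peak list was checked against cell type markers. All 5 MuSC markers (Pax7, Myf5, Calcr, Cdh15 and Megf10) had a transcription start site (TSS) inside a peak, compared with 61% of all protein-coding genes, and their widest TSS peaks had a median width of 25343 bp. A peak lay within 1 kb of a TSS in 3 of 6 myofibre markers, 2 of 4 Schwann cell markers, 1 of 2 fibro-adipogenic markers, 0 of 2 endothelial markers and 0 of 2 leukocyte markers, compared with 64.5% of all protein-coding genes. Per the methods of the study, the digested muscle was passed through cell strainers, Sca1+, CD45+ and CD31+ cells were depleted, and the rest were sorted for Integrin-a7 and CD34 or for a reporter, with a purity that was not complete. The part of other cell types in the peaks at the junction genes was not tested.

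In the embryo the muscle receptor is assembled from the alpha, beta, delta and gamma subunits, and after birth the epsilon subunit takes the place of gamma. Agrin released by the nerve binds Lrp4 on the muscle surface, which activates the receptor tyrosine kinase Musk. Dok7 sustains Musk activity inside the cell, and rapsyn, the product of Rapsn, anchors the receptors in a dense cluster. In an adult muscle fibre the nuclei under the synapse are the main source of AChR subunit transcripts, while MuSCs are mononuclear cells that have not yet formed a fibre. Acetylated histones are common at promoters and enhancers in use, but a peak is not a measure of transcription, and no expression values were analysed here.

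H3K56ac peaks lay at the start of nearly all of these genes. A peak was found within 1 kb of a coding TSS, the start of a protein-coding transcript, in 9 of 10 genes, compared with 64.5% of all 21938 protein-coding genes. Chrng was the exception. A coding TSS lay inside a peak in 8 of 10 genes, compared with 61% of all genes, and the gene that dropped out was Chrne. At least 1 peak touched the gene body of all 10 genes, compared with 69.1% of all genes.

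The 82 peaks were of several kinds. 11 lay within 1 kb of a coding TSS of the junction genes and had a median width of 2675 bp, with a range from 411 to 9124 bp. A further 20 lay elsewhere in their gene bodies, with a median width of 873 bp. 15 lay within 1 kb of a coding TSS of another gene and were 2157 bp wide at the median. The remaining 36 lay in the flanks, away from any coding TSS, and had a median width of 874 bp. Some of these overlapped the bodies of neighbouring genes. All 82 peaks together had a median width of 1118 bp, compared with 974 bp for the whole list, and 9 of the 82 were over 4 kb wide, compared with 9.59% of the whole list. Chrnd and Chrng are neighbours on chromosome 1, and 6 peaks were counted for both.

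**Figure D1:**
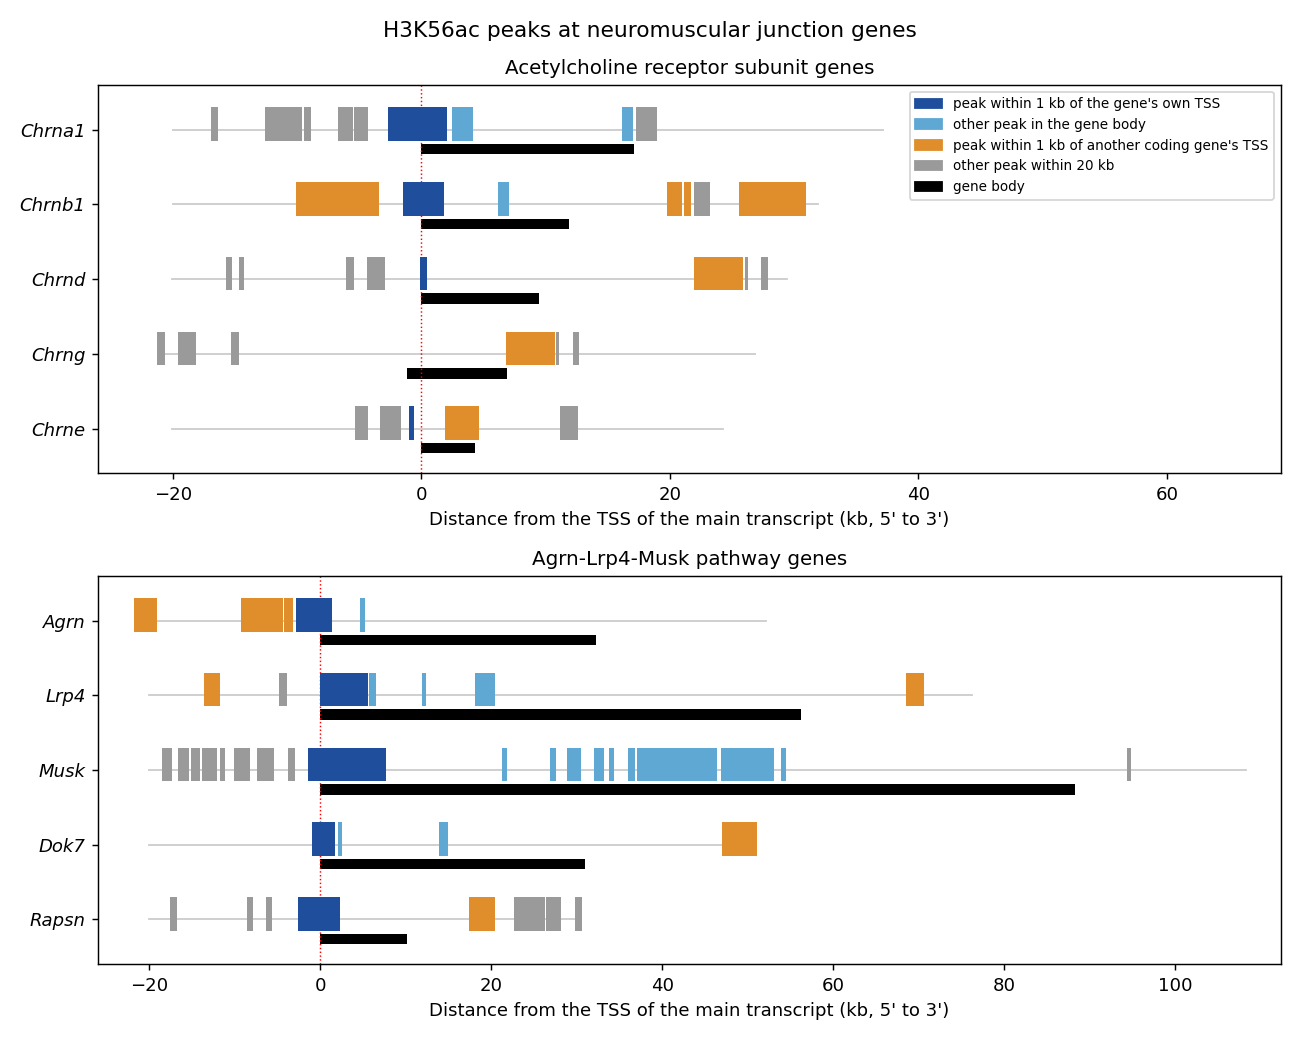
Peaks at the 5 AChR subunit genes (upper panel) and the 5 Agrn-Lrp4-Musk pathway genes (lower panel), drawn as boxes by distance in kb from the TSS of the main transcript, with black bars for the gene bodies and grey lines for the 20 kb on either side. Musk carried 22 peaks, the last of them inside the gene ending 54448 bp from the TSS, whereas Chrng had no peak of its own at the TSS.

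The subunits common to the embryonic and the adult receptor differed widely in their promoter peaks. Chrna1 encodes the alpha subunit, which carries most of each acetylcholine binding site (ENSMUSG00000027107.3, chr2:73563215-73580338, minus strand, mm10). Its TSS peak was 4741 bp wide and ran from 2662 bp upstream to 2078 bp downstream of the TSS, over exon 1 and into intron 1. With the next peak in intron 1, peaks covered 65.2% of that 5.61 kb intron. The 20 kb upstream of Chrna1 held a further 6 peaks and were 45.6% covered, and 2 of the peaks lay at a TSS of the noncoding gene Chrna1os. No peak lay in the following 12011 bp of the gene, and 2 peaks of 872 and 1695 bp flanked its 3′ end.

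Chrnb1, the beta subunit gene (ENSMUSG00000041189.9, chr11:69784036-69795943, minus strand), had a TSS peak of 3297 bp that spanned exons 1 to 4, close to the median of 3389 bp for the widest TSS peak of the 14159 genes that have such a peak. A second peak of 874 bp lay in intron 7. The window around Chrnb1 was the most densely covered of the 10, with 37.2% in peaks, but much of this belonged to its neighbours. A peak of 6619 bp lay at the starts of Fgf11 and Tmem102, and 3 peaks of 5435, 597 and 1247 bp lay at starts of Zbtb4. Without these 4 peaks the covered share of the window was 10.5%.

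Chrnd, the delta subunit gene (ENSMUSG00000026251.13, chr1:87190607-87200070, plus strand), had a narrow TSS peak. It was 607 bp wide, ran from 113 bp upstream to 493 bp downstream of the TSS over exons 1 and 2, and lay at percentile 1.80 of the widest TSS peaks of all genes. It was also the only peak in the gene body, and 4 peaks of 445 to 1411 bp lay upstream. Thus the 3 shared subunit genes all carried a TSS peak, with widths that ranged from 607 to 4741 bp.

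The embryonic and the adult subunit were then set side by side. Chrng encodes the gamma subunit of the embryonic receptor (ENSMUSG00000026253.14, chr1:87204657-87212694, plus strand) and had no peak within 3 kb of any of its 4 coding TSSs. The nearest peak began 6800 bp downstream of the main TSS. This 3929 bp peak, chr1:87212611-87216539, lay at the start of the neighbouring gene Eif4e2, which encodes a cap-binding protein, and only 84 bases of it reached into exon 12 of Chrng. The peak-free stretch between the Chrnd promoter peak and the Eif4e2 promoter peak was 21480 bp long and took in 94.5% of Chrnd and 7954 of the 8038 bases of Chrng. Stretches of this length are not rare, since 16.3% of the 105579 gaps between neighbouring peaks of the list were at least as long.

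Chrne encodes the epsilon subunit of the adult receptor (ENSMUSG00000014609.16, chr11:70614883-70619216, minus strand). Its nearest peak was only 411 bp wide and ended 553 bp upstream of the main TSS, so that no Chrne start lay inside a peak. Further upstream lay peaks of 1682, 625 and 414 bp. The gene body was 55.2% covered, the highest share of the 10 genes, but all of this came from a single peak of 2754 bp over exons 7 to 12, chr11:70614521-70617274. That peak holds both annotated starts of 4930544D05Rik, a protein-coding gene on the opposite strand that shares 1043 bases with Chrne. The 2 genes cannot be told apart in ChIP-seq signal, which has no strand. Chrne therefore exceeded Chrng by 54.1 percentage points in covered gene body when all peaks were used, by 1.34 points when 20 kb were added on either side, and by 0 when peaks at the starts of other coding genes were left out.

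The promoter sequences of the receptor genes and of Musk are shown because they differ in the marks found above and in the motifs they hold. Each run gives the 250 bases before the start of the RefSeq transcript, 5′ to 3′ on the strand of the gene (RefSeq, GRCm38.p6, the same coordinates as mm10). Capitals mark the E-box, CANNTG, which is bound by myogenic factors such as MyoD and myogenin, and the N-box, TTCCGG or its reverse complement CCGGAA, which is bound by Ets factors such as GABP. The positions are chr2:73580339-73580588 for Chrna1, chr11:69795938-69796187 for Chrnb1, chr1:87205561-87205810 for Chrng, chr11:70619195-70619444 for Chrne and chr4:58285712-58285961 for Musk.
Chrna1: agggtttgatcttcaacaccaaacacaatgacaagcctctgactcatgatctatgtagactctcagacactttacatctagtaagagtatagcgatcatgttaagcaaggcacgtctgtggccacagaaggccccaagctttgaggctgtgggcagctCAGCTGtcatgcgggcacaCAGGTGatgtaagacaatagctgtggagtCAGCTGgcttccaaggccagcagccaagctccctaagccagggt
Chrnb1: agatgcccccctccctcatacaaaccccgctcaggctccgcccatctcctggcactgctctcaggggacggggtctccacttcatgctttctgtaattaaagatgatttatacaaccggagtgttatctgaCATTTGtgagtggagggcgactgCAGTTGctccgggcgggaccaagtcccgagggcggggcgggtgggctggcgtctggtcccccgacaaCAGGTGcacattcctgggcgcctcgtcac
Chrng: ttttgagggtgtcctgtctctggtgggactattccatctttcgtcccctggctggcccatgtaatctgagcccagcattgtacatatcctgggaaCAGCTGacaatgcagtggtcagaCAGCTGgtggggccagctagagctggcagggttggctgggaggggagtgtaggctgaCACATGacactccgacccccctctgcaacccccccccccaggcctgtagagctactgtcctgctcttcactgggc
Chrne: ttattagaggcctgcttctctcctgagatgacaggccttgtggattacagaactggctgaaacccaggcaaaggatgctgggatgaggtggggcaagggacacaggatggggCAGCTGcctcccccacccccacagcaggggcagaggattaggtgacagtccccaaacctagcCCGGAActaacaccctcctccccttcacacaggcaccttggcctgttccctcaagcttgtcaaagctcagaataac
Musk: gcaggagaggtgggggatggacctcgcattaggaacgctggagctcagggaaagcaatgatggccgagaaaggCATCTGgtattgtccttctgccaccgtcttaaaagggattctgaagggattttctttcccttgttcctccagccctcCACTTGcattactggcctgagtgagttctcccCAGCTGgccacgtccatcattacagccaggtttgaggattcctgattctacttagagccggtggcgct

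E-boxes were found in promoters inside and outside of peaks. The promoters of Chrna1, Chrnb1 and Musk lay wholly inside H3K56ac peaks, and those of Chrng and Chrne had 0 bases in a peak. Chrng nevertheless held 3 E-boxes, 2 of them with the letters CAGCTG, which start 155 and 132 bases before the TSS. Chrna1 also held 3, with CAGCTG starting 92 and 44 bases before the TSS. Chrnb1 held 3 E-boxes and none was CAGCTG, whereas Musk held 3 with a CAGCTG at 68 bases. Chrne held 1 CAGCTG at 138 bases and the N-box CCGGAA at 76 bases before the TSS. RefSeq promoters of 300 bases (250 before to 50 after the start) were matched for 7 of the 10 genes, the others being Chrnd, Lrp4 and Rapsn. Of these 7, 6 held an E-box on either strand, compared with 72.3% of all 32851 promoters, and 4 held CAGCTG, which is a subset of the E-boxes, compared with 16.3%. The N-box was found in 1 of 7, compared with 14.9%. These are letter matches, and binding was not measured.

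The base composition of the promoters was compared with the presence of a peak, since acetylated histones are often found at promoters rich in CpG. The ratio of observed to expected CpG was computed for the 500 bases on either side of each main TSS. It was low at Chrne (0.13), Chrnd (0.14), Rapsn (0.21), Chrna1 (0.23) and Chrng (0.23), intermediate at Musk (0.32), and high at Chrnb1 (0.64), Dok7 (0.67), Lrp4 (0.73) and Agrn (0.84). The median of all protein-coding genes was 0.57. Among genes with a ratio of at least 0.6, 94.2% had a peak within 1 kb of a coding TSS, and so did all 4 junction genes of this class. Among the 7016 genes with a ratio under 0.3 the share was 18.8%, whereas it was 4 of 5 among the junction genes, namely Chrna1, Chrnd, Chrne and Rapsn. Chrne was counted only through its peak of 411 bp, and no Chrne start lay inside a peak. A coding TSS lay inside a peak in 13.9% of all genes of this class. Between the limits of 0.3 and 0.6 lay Musk, in a class in which 67.1% of genes had a peak within 1 kb of a coding TSS. Peak width varied greatly within the CpG-poor genes, from 411 bp at Chrne and 607 bp at Chrnd to 4741 bp at Chrna1 and 4909 bp at Rapsn, beside a median of 2387 bp for CpG-poor genes with a TSS peak.

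**Figure D2:**
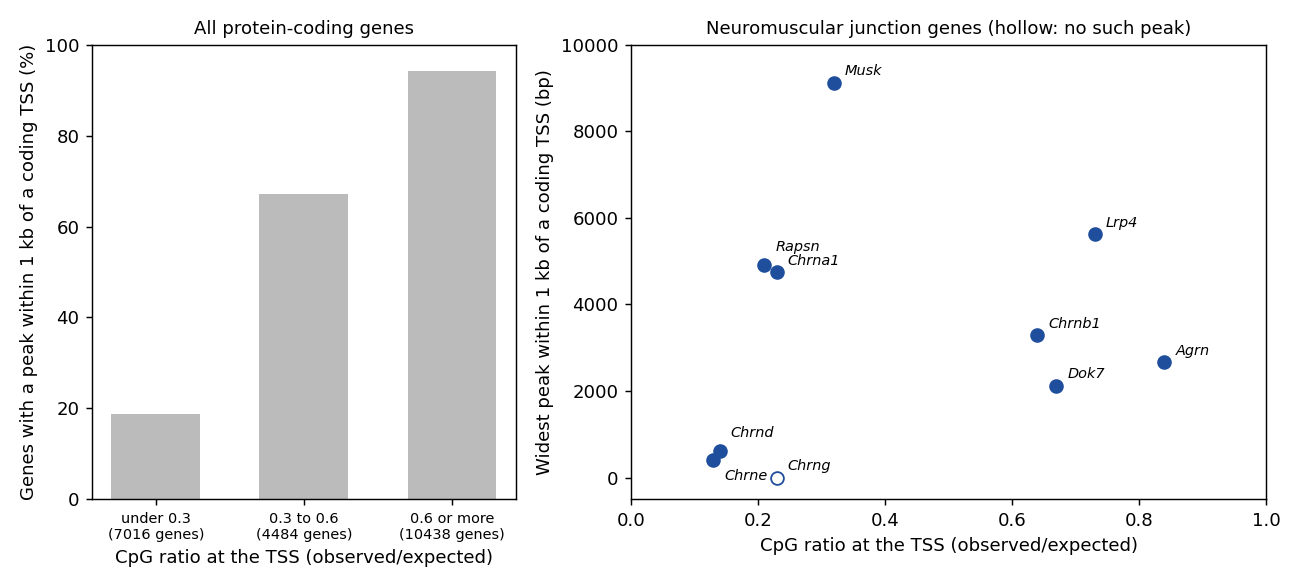
Left, bars give the percentage of all protein-coding genes with a peak within 1 kb of a coding TSS in 3 classes of CpG ratio. Right, each point is a junction gene, with its CpG ratio on the x axis and the width in bp of its widest TSS peak on the y axis, where Chrng, hollow, has no such peak and Musk has the widest at 9124 bp. The Agrn point is the 2675 bp peak shared with Isg15, which does not reach the Agrn TSS. The peak over that TSS was 1448 bp wide.

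In the clustering pathway, all 5 genes had a TSS inside a peak. Agrn, which encodes the secreted proteoglycan agrin (ENSMUSG00000041936.18, chr4:156165290-156197488, minus strand), carried a TSS peak of 1448 bp that covered exon 1. A second peak of 2675 bp began 211 bp upstream and was shared with Isg15, an interferon-induced gene. Together with peaks of 1084 and 4946 bp at the starts of Isg15 and AW011738, they formed a nearly continuous region of 10.6 kb, and a last upstream peak of 2736 bp lay at a start of Perm1. The body of Agrn was almost bare, with a single further peak of 596 bp in intron 2. It lay at 5.98% covered, and 83.6% of the gene fell in a peak-free stretch of 57.2 kb.

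Lrp4 encodes the agrin receptor (ENSMUSG00000027253.15, chr2:91457511-91513779, plus strand). Its TSS peak of 5626 bp began 66 bp upstream and extended 5559 bp into the gene, so that nearly all of it lay downstream of the TSS. The coverage was concentrated towards the 5′ end. Intron 1, 13.4 kb long, was 49.6% covered, peaks of 1109 and 1172 bp lay in the region of exons 9 to 12, and no peak was found in the last 35.8 kb of the gene. Of the peaks in its flanks, those of 1918 and 2157 bp lay at starts of the neighbours 1110051M20Rik and Ckap5.

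Musk encodes the kinase at the centre of the pathway (ENSMUSG00000057280.15, chr4:58285960-58374303, plus strand) and carried the most peaks of the 10 genes. It had 22 peaks in the gene and its flanks, with a summed width of 41.8 kb. The other genes had 6 to 10 peaks, and all protein-coding genes had a median of 4. At 88.3 kb Musk is also the longest of the 10 genes, and these counts were not scaled for length. Its TSS peak of 9124 bp, chr4:58284577-58293700, ran from 1385 bp upstream to 7738 bp downstream, covered all of intron 1 and lay at percentile 95.4 of the widest TSS peaks. The widest peak of all 82, with 9369 bp, lay in intron 5 at chr4:58323014-58332382, starting 37052 bp downstream of the TSS. With the 4 peaks around it, it formed a region of 18.5 kb from intron 5 into intron 6 that was 92.3% covered. Intron 5, 29.6 kb long, held 8 peaks and was 52.7% covered, and intron 6 was 56.8% covered. A further 10 peaks lay upstream of the TSS peak, and the upstream 20 kb were 59.7% covered.

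None of the peaks counted for Musk lay within 1 kb of an annotated TSS of another gene, so its coverage was the same, 33.3% of the gene body, after such peaks were left out. This share was at percentile 89.6 among 3855 protein-coding genes of similar length, whose median was 7.10%. The coverage was uneven along the gene. The last peak inside the gene ended within intron 6, and the last 33.9 kb, 38.4% of the gene, held no peak. The Musk peaks were poor in GC, with 41% compared with 46.6% over all peaks, and had a CpG ratio of 0.20 compared with 0.30.

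Dok7 encodes the adaptor that activates Musk from inside the cell (ENSMUSG00000044716.12, chr5:35056766-35087839, plus strand). Its TSS peak was 2127 bp wide, below the median of TSS peaks, and was followed by 2 short peaks of 582 and 461 bp. A peak of 1046 bp lay in intron 4, and the last 16.1 kb of the gene held none. The other 3 peaks of its window lay at starts of Lrpap1, a chaperone gene of the LDL receptor family.

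Rapsn encodes the scaffold protein of the receptor cluster (ENSMUSG00000002104.11, chr2:91035620-91045729, plus strand). Its TSS peak of 4909 bp was close in width to that of Chrna1, 4741 bp, and ran from 2571 bp upstream to 2337 bp downstream of the TSS over exons 1 and 2. It was the only peak in the gene body, of which it covered 23.3%. On the far side of a peak-free stretch of 15.1 kb lay a peak of 3034 bp at the start of Psmc3, a proteasome subunit gene. Beyond it lay peaks of 3690, 1781 and 906 bp, all within the body of Psmc3, and each also overlapped the body of a second coding gene.

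Across the 10 genes, between 1.05% and 55.2% of the gene body was covered, with a median of 19.5%. The median of all protein-coding genes was 7.82%, and 7 of 10 genes lay above it. The 3 below it were Chrng, Chrnd and Agrn, and Chrne lay above it only through the peak at the starts of 4930544D05Rik. When each gene was ranked among protein-coding genes with a length within 50% of its own, the percentiles ran from 37.2 for Agrn to 89.6 for Musk, with a median of 68.8. Chrne was at 81.2 in this ranking, and at 0% covered once the peak at the starts of 4930544D05Rik was left out. With 20 kb added on either side, all 10 genes lay above the median of 9.53%, with a range from 11.4% for Dok7 to 37.2% for Chrnb1. Part of this lay at starts of neighbouring genes. Without those peaks, the shares of Agrn (2.83%), Dok7 (5.93%), Chrng (7.00%) and Chrnd (8.92%) were below that median, which itself includes such peaks. For Agrn, the peaks left out include the 2675 bp peak shared with Isg15, which also lay within 1 kb of the Agrn TSS. Leaving out peaks at starts of other coding genes changed the gene body share of only Chrng and Chrne among the 10, and both were then 0%.

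**Figure D3:**
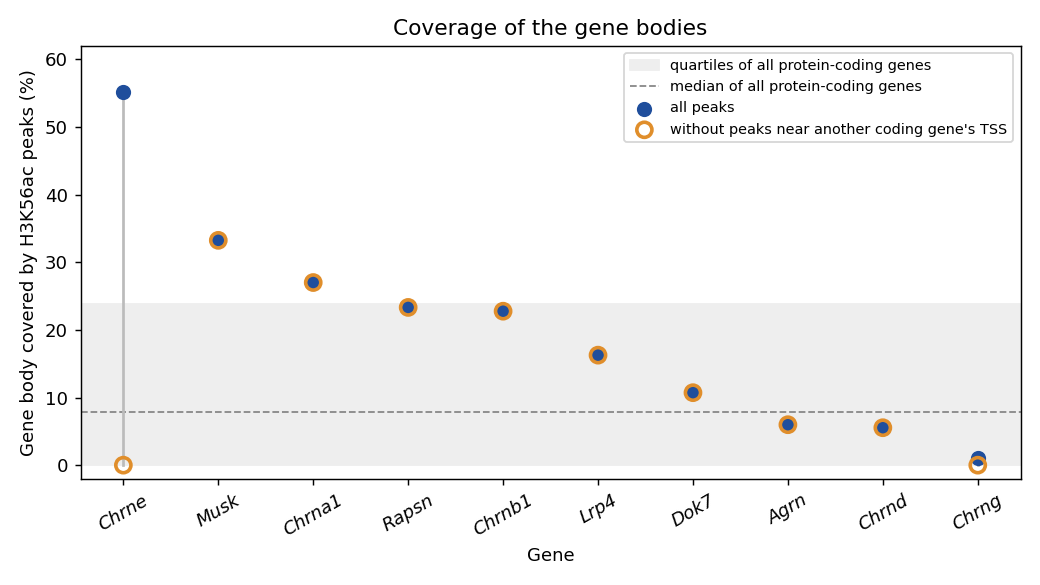
Percentage of each gene body covered by H3K56ac peaks, with all peaks (filled) and without peaks within 1 kb of a coding TSS of another gene (hollow), and the median of all protein-coding genes as a dashed line at 7.82%. Chrne fell from 55.2% to 0% and Chrng from 1.05% to 0%, while the points of the other 8 genes coincide.

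Other genes of the junction were examined in the same way. All 11 intracellular partners of Musk signalling had a peak within 1 kb of a TSS, with the widest at Abl1 (17284 bp), a tyrosine kinase, and Ctnnb1 (9826 bp), which encodes beta-catenin. The same held for 17 of 18 further postsynaptic and synaptic matrix genes. Here the widest peaks lay at Utrn (10610 bp), which encodes the dystrophin relative utrophin, at Prkar1a (9306 bp), a regulatory subunit of protein kinase A, and at Ncam1 (9244 bp), a neural cell adhesion molecule. Scn4a, the sodium channel gene of the muscle fibre, was without a peak at the TSS, and its nearest peak was 6567 bp away. All 7 genes of the neuregulin-ErbB-Ets route had such a peak, among them Gabpb1 (8685 bp), Etv5 (6693 bp) and Erbb2 (5742 bp). Of 5 regulators of the response to denervation, 3 had a peak, including Hdac4 (6215 bp) and Myod1 (2720 bp), and Hdac9 and Dach2 did not.

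Receptor subunits of neurons and genes of the nerve terminal were counted as well. Among the 11 neuronal AChR subunit genes, 6 had a peak within 1 kb of a TSS, and the median covered share of the gene body was 4.22%. This median was 19.5% for the 10 junction genes, 23.6% for the further postsynaptic and matrix genes and 26.95% for the Musk partners. It was 13.6% for the neuregulin-ErbB-Ets route, 27.97% for the denervation regulators and 0% for the presynaptic genes. Among the neuronal subunit genes, Chrna5 (2572 bp) and Chrna7 (2531 bp) had the widest TSS peaks. The nearest peak to Chrna3 was 21347 bp and that to Chrnb3 was 43317 bp from a TSS. Of 5 presynaptic genes, only Syt2, a synaptotagmin gene, had a TSS peak, of 629 bp. Chat and Slc18a3, which serve the synthesis and vesicular loading of acetylcholine, and Slc5a7, the choline transporter gene, had none. The background share for all these counts is the 64.5% of protein-coding genes given above. The lists were not compared within CpG classes, across which this share ranged from 18.8% to 94.2%.

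**Figure D4:**
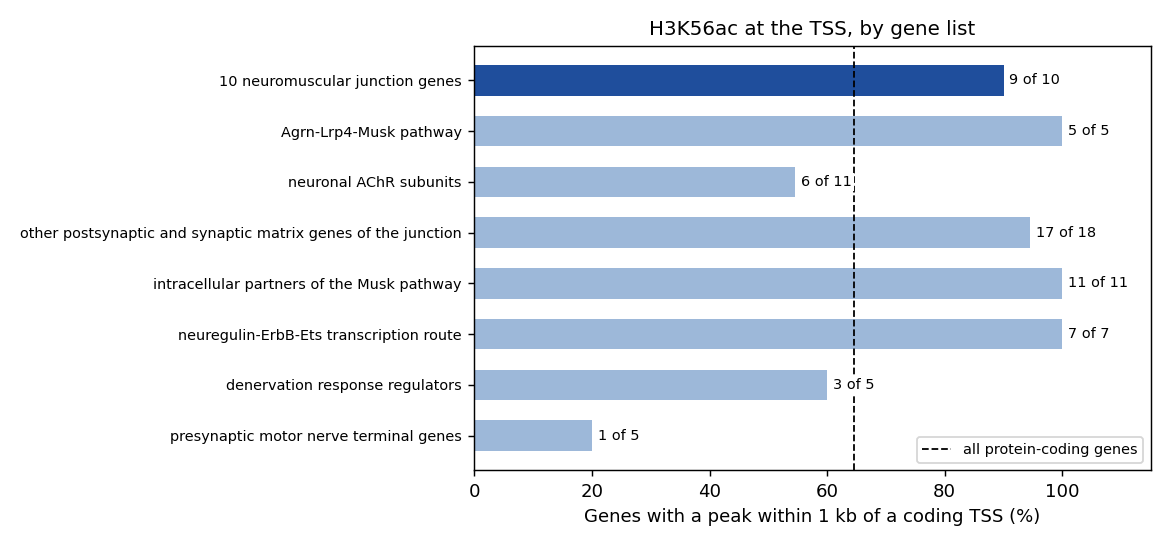
Percentage of genes in each list with a peak within 1 kb of a coding TSS, with the number of genes beside each bar and the share of all protein-coding genes, 64.5%, as a dashed line. The bar of the 10 junction genes stands at 9 of 10, neuronal AChR subunits at 6 of 11 and presynaptic genes at 1 of 5.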

How the data were processed

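H3K56ac was profiled in MuSCs by ChIP-seq in 8 libraries (4 groups of 2 replicates). Per the methods of the study, reads were trimmed with Trim Galore and aligned to mm10 with bowtie, keeping uniquely aligned reads. Duplicates were removed with Picard, peaks were called with MACS2, blacklisted regions were filtered, and overlapping peaks were merged with GenomicRanges. Submitters' processing notes also name FastQC, SAMtools and deepTools. Merging widens and fuses peaks, and unique alignment lowers the chance of a peak in repeats.

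The deposited list gives positions. Its score column was 0 in every row, as deposited by the authors, and 0 columns held values per sample, so the planned edgeR test of Sirt6mKO against Control was not run, and depth per library, which the list does not hold, was not used.

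Peaks were overlapped (at least 1 bp) with GENCODE vM21 genes in Python 3.11.15, and figures were drawn with matplotlib 3.10.9. Positions count from 1 on mm10. The main transcript was the APPRIS principal isoform, and coding TSSs were those of protein-coding transcripts. CpG ratios and motifs were computed from GRCm38 and RefSeq sequence. The overlap functions were tested on simulated intervals. Named genes were the 10 junction genes, neighbours with a TSS within 1 kb of their peaks, and up to 4 genes per list with the widest or no TSS peak. Chrna1os was named after its peaks were seen. The junction genes and the lists were chosen with earlier results of these data known. Alternatives were other windows, TSS distances, minimum widths, joined peaks, leaving out peaks at other starts, and, chosen after seeing the data, other CpG limits.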

Additional observations from a re-analysis of the deposited data

How the results depend on the processing

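No paired analysis was possible because no replicate has values of its own in the peak list, and for the same reason no replicate was left out. The list is a union of unstated libraries, so numbers and widths of peaks depend on merging and on depth, which the list does not give, and absence of a peak means only that none was called. The number of peaks at the 10 genes, 82, was 31 in gene bodies alone, 129 within 50 kb and 49 after peaks less than 1 kb apart were joined, and it ranged from 60 to 80 under the other alternatives. The number of genes with a peak at the TSS stayed at 8 or 9 of 10. It was 8 when the TSS had to lie inside a peak or when peaks were at least 500 bp wide, and Chrne was the gene lost. The median covered gene body, 19.5%, was 16.7% with 20 kb added, 19.1% with peaks of at least 500 bp and 19.7% with joined peaks. Its median percentile, 70.1, was 68.8 among genes of similar length, 67.9 with 20 kb added, 70.1 with peaks of at least 500 bp and 69.2 with joined peaks. Neither median was computed without peaks at starts of other coding genes, where the gene body share of Chrne fell from 55.2% to 0%. The difference between Chrne and Chrng, 54.1 percentage points, was 1.34 with 20 kb added and 0 without peaks at starts of other coding genes, because the peaks left out were the only ones in either gene body. The share of CpG-poor genes with a peak at the TSS, 18.8% at a limit of 0.3, was 13% at 0.2 and 23.9% at 0.4. Among the junction genes it was 4 of 5 at 0.3, 2 of 2 at 0.2 and 5 of 6 at 0.4.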

Other observations

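The density of E-boxes and N-boxes was counted in the peaks. CANNTG occurred 5.66 times per kb in the 82 peaks and 5.60 times per kb in all peaks, and CAGCTG 0.747 and 0.609 times per kb. The N-box TTCCGG occurred 0.228 times per kb in the 82 peaks, or 33 times in all, and 0.175 times per kb in the whole list. By gene, its density was highest in the peaks around Chrng and Chrnd, 0.678 and 0.599 per kb with 5 matches each, and 0 matches fell in the peaks of Dok7. All 6 peaks of Chrng were also counted for Chrnd, and the widest of them, 3929 bp, lay at the start of Eif4e2. The Chrng promoter had 0 bases in a peak and held 0 N-boxes. The GC content of the peaks ran from 41% at Musk to 55.2% at Dok7.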
